A study of Mus musculus with 2 samples.

Results

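The 38 genes described here encode the chaperones, sensors, transcription factors and disposal machinery of the endoplasmic reticulum (ER), the compartment in which secreted and membrane proteins fold. They were chosen by name, as probe sets annotated to a single gene of that list, and all 38 were found, with 86 probe sets among 45037 on the array that are not controls. The list covered 38 of 18193 genes with such a probe set. Liver RNA was compared between a pool of 3 male wild-type C57BL/6 mice, 8 weeks old, with 30 minutes of warm ischaemia of both kidneys and reperfusion, and a pool of 3 such mice with a sham operation, both 24 hours after surgery. Each pool was read by 1 Affymetrix array, which makes 2 samples without replication. No test, error or p-value between the conditions could be given, the spread between mice is unknown, and "higher" and "lower" below describe these 2 pools.

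When unfolded proteins build up in the ER, the membrane proteins IRE1, ATF6 and PERK start the unfolded protein response. IRE1 (gene Ern1) splices Xbp1 mRNA, ATF6 is cut to release a transcription factor, and PERK (Eif2ak3) phosphorylates eIF2alpha, which slows translation while letting ATF4 be made. Their targets are ER chaperones, folding enzymes, the machinery of ER-associated degradation that returns misfolded proteins to the cytosol, and, under ATF4, amino acid genes and the factor CHOP (Ddit3). Hepatocytes secrete most plasma proteins and depend on this machinery.

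The promoters of these genes are shown first. The ER stress response element (ERSE) is CCAAT and CCACG with 9 bases of any kind between them. It is a site through which ATF6 is known to act on chaperone genes. RefSeq promoters (GRCm38.p6, 250 bases before to 50 after the start) were at hand for 34 of the 38 genes, the others being Manf, Hyou1, Atf6 and Derl1. An exact ERSE on either strand was found in 9 of the 34 (26.5%), whereas 37 of 27025 genes in the whole table (0.137%) and 39 of its 32851 promoters (0.119%) held one. The 10 matches are given turned so that CCAAT comes first, with the fixed letters in capitals and the 9 spacer bases in lower case.
Calr: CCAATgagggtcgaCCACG
Canx: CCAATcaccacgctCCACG
Creld2: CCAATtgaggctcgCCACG
Derl3: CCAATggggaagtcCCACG
Dnajc3: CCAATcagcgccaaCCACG
Hsp90b1: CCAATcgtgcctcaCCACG
Hsp90b1: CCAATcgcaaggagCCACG
Hspa5: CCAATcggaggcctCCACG
Pdia6: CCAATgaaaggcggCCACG
Syvn1: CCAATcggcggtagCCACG
All 10 spacers held 6 or 7 bases of G or C among their 9. The matches ended between 26 (Syvn1) and 194 (Hsp90b1) bases before the start, 6 in the direction of the gene and 4 against it. Those of Calr (chr8:84847075-84847093), Derl3 (chr10:75893242-75893260), Dnajc3 (chr14:118937827-118937845) and Pdia6 (chr12:17266491-17266509) lie upstream of the annotated start. So do both matches of Hsp90b1, at chr10:86705533-86705551 and chr10:86705638-86705656.

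Other elements were searched in the same promoters. ERSE-II, ATTGG and CCACG with any 1 base between them, which shares the CCACG of the ERSE, was found for Herpud1 and Dnajb11 (5.88% of 34 members, 0.0444% of all genes). The ATF4-type element (CARE), TGATGNAA, was found for Asns, Atf3, Chac1, Trib3 and Herpud1 (14.7% of members, 4.51% of all genes). The core of the XBP1 element (UPRE), TGACGTGG, whose CGTGG is the reverse complement of CCACG, was found for 0 of the 34 and for 193 of all genes (0.714%). Only exact letters were counted, so a variant of an element was not. The windows below hold the 200 bases before the start, 5′ to 3′ on the gene's strand, with matches in capitals. Hspa5, Creld2 and Syvn1 are shown as ERSE genes with large differences, Canx as an ERSE gene without, Herpud1 for its ERSE-II and CARE, and Chac1 and Atf3 for a CARE alone.
Hspa5: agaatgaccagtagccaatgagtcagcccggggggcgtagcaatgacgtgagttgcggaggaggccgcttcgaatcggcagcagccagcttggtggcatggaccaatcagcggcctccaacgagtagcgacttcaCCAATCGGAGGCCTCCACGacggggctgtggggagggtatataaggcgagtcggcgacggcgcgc
Creld2: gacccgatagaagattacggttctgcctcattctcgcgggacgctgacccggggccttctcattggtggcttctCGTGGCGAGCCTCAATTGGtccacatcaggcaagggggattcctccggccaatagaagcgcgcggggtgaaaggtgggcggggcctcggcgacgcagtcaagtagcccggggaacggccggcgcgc
Syvn1: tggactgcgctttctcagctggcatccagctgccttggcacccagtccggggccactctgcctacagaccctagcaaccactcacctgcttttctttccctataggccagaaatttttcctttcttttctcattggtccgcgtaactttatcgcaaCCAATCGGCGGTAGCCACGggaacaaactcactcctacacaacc
Canx: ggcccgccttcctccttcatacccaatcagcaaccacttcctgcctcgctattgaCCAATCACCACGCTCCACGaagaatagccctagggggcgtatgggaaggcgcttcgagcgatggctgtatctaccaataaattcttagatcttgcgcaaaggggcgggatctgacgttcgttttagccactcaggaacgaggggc
Herpud1: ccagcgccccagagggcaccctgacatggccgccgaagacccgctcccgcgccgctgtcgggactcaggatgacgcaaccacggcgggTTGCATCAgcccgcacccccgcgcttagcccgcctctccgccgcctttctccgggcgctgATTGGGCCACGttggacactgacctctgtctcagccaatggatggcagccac
Chac1: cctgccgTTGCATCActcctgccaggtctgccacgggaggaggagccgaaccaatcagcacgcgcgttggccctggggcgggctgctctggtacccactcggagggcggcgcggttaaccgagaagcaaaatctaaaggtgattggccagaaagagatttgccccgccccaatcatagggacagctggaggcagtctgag
Atf3: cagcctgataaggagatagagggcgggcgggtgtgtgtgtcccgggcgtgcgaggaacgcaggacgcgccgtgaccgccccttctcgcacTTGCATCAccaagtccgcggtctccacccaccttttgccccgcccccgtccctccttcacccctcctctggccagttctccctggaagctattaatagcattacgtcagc
The windows lie at chr2:34771890-34772089 (plus strand) for Hspa5, chr15:88819446-88819645 (plus strand) for Creld2, chr19:6046376-6046575 (plus strand) for Syvn1 and chr11:50325674-50325873 (minus strand) for Canx. Those of Herpud1, Chac1 and Atf3 lie at chr8:94386229-94386428 (plus strand), chr2:119351042-119351241 (plus strand) and chr1:191183334-191183533 (minus strand).

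Signals are the deposited probe set intensities in arbitrary units. Differences are log2 of signal plus 16, renal ischaemia-reperfusion pool minus sham pool, and folds are on the same scale. A gene was read by its brightest probe set among those at or above the array median on at least 1 array (257.0 sham, 254.1 renal ischaemia-reperfusion). All 38 genes passed, 37 of them not under the median of either array, whereas Derl3 passed through the renal ischaemia-reperfusion array alone. Both arrays had been scaled to the same mean, and the 3′ beta-actin control read 1.38 times the 5′ control in the sham pool and 1.24 times after renal ischaemia-reperfusion. Of the 18 hybridisation controls of bacterial sequence, 18 read higher after renal ischaemia-reperfusion, with a median of 0.28. Of 12 hepatocyte markers read, 9 were higher and 3 lower, with a median of 0.26, and albumin (Alb) had signals of 43573 and 72494.

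Most of the 38 genes had higher signals after renal ischaemia-reperfusion. In all, 17 were at least 2-fold higher, 1 was at least 2-fold lower, and 20 lay within 2-fold, 13 of them higher and 7 lower. Of all 13117 genes read the same way, 8.71% were 2-fold or more higher and 9.59% 2-fold or more lower. A signal under its array's median gives only a bound, taken here against that median, and counts that use it are called bounded. The bounded shares of all genes were 5.5% and 6.59%, and the members' counts were 17 and 1 by that rule too. The median difference of the 38 genes was 0.95 (quartiles 0.09 and 1.67), against -0.01 over all genes (quartiles -0.45 and 0.42). Taking the hybridisation controls as the reference lowers every difference by 0.28. Then 15 members were 2-fold or more higher and 1 lower, against 5.76% and 15.4% of all genes, and 27 members were higher by any amount. With genes under the median of either array left out, 16 of 37 members were past 2-fold on the higher side and 1 on the lower, where 5.14% and 6.17% of 10923 genes were.

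Probe sets of 1 gene gave the available measure of technical disagreement. Their differences varied within genes with an SD of 0.72 over 5028 genes and 0.68 over the 25 members that had 2 or more. Of those 25, 17 had all probe sets higher, 1 (Derl2) had all lower, and 7 had probe sets of both signs. The 7 were Dnajc3, Fkbp11, Pdia6, Canx, Os9, Atf6 and Ern1. The 18 that agreed in sign had a median of 1.08, with 10 at least 2-fold higher and none lower, and the 13 read by 1 probe set had a median of 0.91, with 5 at least 2-fold higher. Of the 82 member probe sets past the filter, 64 were higher, 34 of them at least 2-fold (32 bounded), and 1 was at least 2-fold lower. Of the 18 members past 2-fold, 9 stayed so under each of the processing alternatives that gave them a value, namely Hspa5, Hsp90b1, Creld2, Manf, Sdf2l1, Ddit3, Asns, Syvn1 and Derl3. Another choice of probe set could not change Creld2, Manf, Sdf2l1, Ddit3 or Derl3, each with 1 past the filter. The other 9 fell under 2-fold or changed sign under at least 1 alternative.

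**Figure D1:**
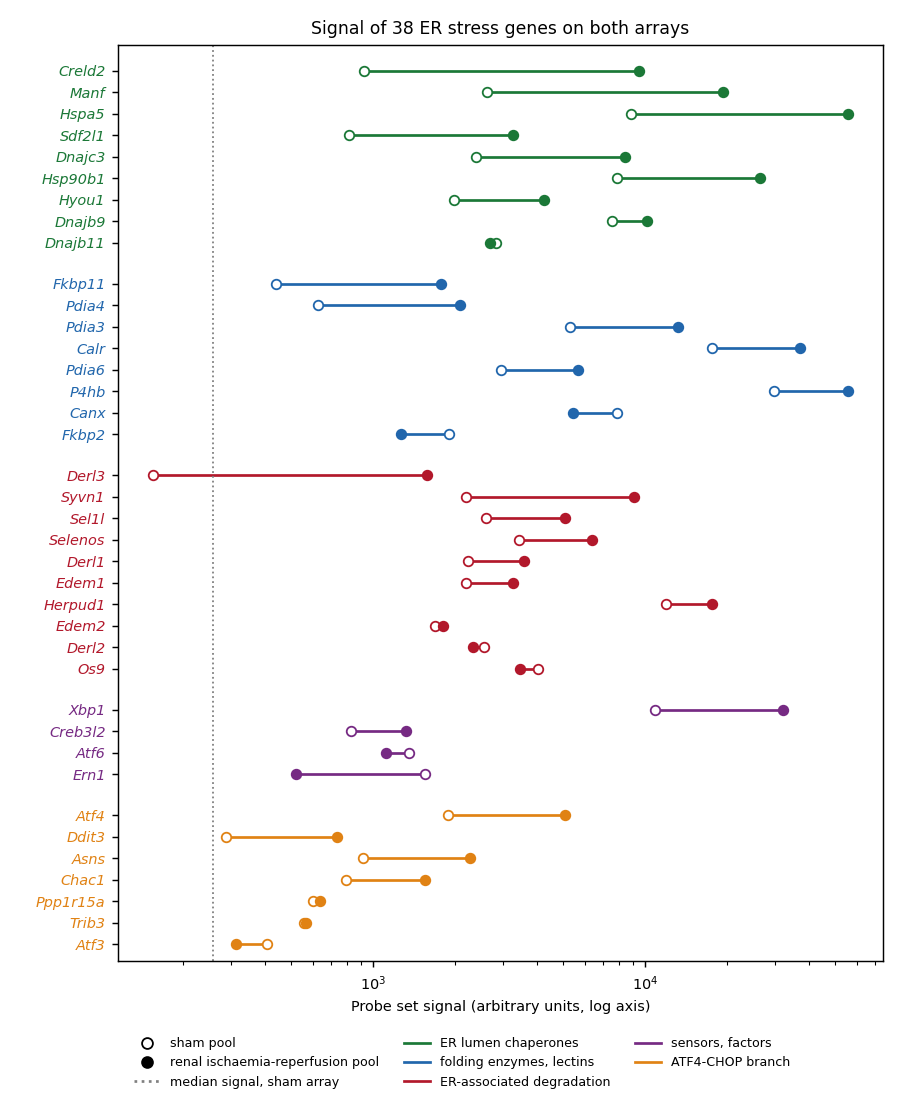
Signal of the probe set used for each gene, on a log axis in arbitrary units, in the sham pool (open circles) and the renal ischaemia-reperfusion pool (filled circles), grouped by role; each circle is 1 array, and the dotted line is the sham array median of 257.0. Filled circles lie to the right for 30 genes and to the left for 8, and the longest lines are those of Creld2, Derl3, Manf and Hspa5.

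The chaperones of the ER lumen and their partners had the highest median of the roles in the list. Of 9 such genes, 7 were 2-fold or more higher and none as much lower, with a median difference of 1.82. Hspa5 encodes BiP, the Hsp70 of the ER and the protein that holds the stress sensors inactive. It had signals of 8866 sham and 55610.3 after renal ischaemia-reperfusion, 6.26-fold higher, and its 3 probe sets ranged from 1.89 to 2.86. Hsp90b1, the ER form of Hsp90 (GRP94), had signals of 7855 and 26552 (3.38-fold), with a second probe set at 2.16. Every probe set of either gene was at least 2-fold higher.

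Among the smaller partners, Creld2, a secreted ER stress protein, had signals of 928.4 and 9469 (10.04-fold higher), the largest fold among the 37 members not under a median. Manf, a neurotrophic factor kept in the ER by BiP, had signals of 2621 and 19321 (7.33-fold). Sdf2l1, which works with BiP cochaperones, had 811.5 and 3269 (3.97-fold). Each of these was read by 1 probe set, so no agreement between probe sets can be given. Hyou1, the large chaperone GRP170 that exchanges nucleotide on BiP, was 2.13-fold higher (1978 and 4233). That value is from a probe set with the suffix _s_at, which can bind other transcripts. A second probe set, without a suffix, read 0.16. For the third the sham signal was under the median, and it was at least 1.65-fold higher.

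The J-domain cochaperones of BiP were not alike. Dnajc3 (p58IPK) had signals of 2388 and 8451 (3.52-fold higher) by its brightest probe set. Its other 4 read 0.79, -0.56, -0.71 and -0.83, so 3 of 5 were lower and its direction is uncertain. Dnajb9 (ERdj4), which also binds IRE1, had signals of 7559 and 10173, a difference of 0.43. Dnajb11 (ERdj3) had 2832 and 2680 (-0.08). The last pair stayed within 2-fold on the same arrays where their partner Hspa5 was 6.26-fold higher.

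Among the folding enzymes and lectin chaperones, 4 of 8 genes were 2-fold or more higher and none as much lower, with a median of 1.01. Protein disulfide isomerases make and rearrange disulfide bonds. Pdia4 (ERp72) had signals of 625.5 and 2083 (3.27-fold higher) and Pdia3 (ERp57) 5301 and 13193 (2.48-fold). A second probe set of each read close to no difference, at 0.11. Pdia6 (P5) had 2949 and 5690.2, a difference of 0.94, with a dimmer probe set at -0.14. P4hb, the classical isomerase, had 29721 and 55765, a difference of 0.91 by its only probe set.

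Calreticulin and calnexin are lectins that hold glycoproteins for folding, the former soluble in the lumen and the latter anchored in the membrane. Calr had signals of 17674 and 37172 (2.10-fold higher), and its 3 probe sets ranged from 0.79 to 1.26. Its difference was between 0.77 and 0.81, under 2-fold, with 3 other scalings of the arrays. Canx had 7902 and 5433, a difference of -0.54, by a probe set with the suffix _s_at, which can bind other transcripts, and its other probe sets read -0.44 and 0.00. The lower value of Canx lay within the 0.68 SD between probe sets of a member, so its direction is uncertain. The same limit holds for every other member with a smaller difference than that SD, whether higher or lower. An ERSE was found in both promoters.

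The prolyl isomerases of the list, which ease the turning of proline bonds, were also split. Fkbp11 had signals of 437.5 and 1772 (3.94-fold higher) by an _s_at probe set, but its other probe sets read -0.25 and -0.72. Fkbp2 had 1897 and 1268, a difference of -0.58 by its only probe set.

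**Figure D2:**
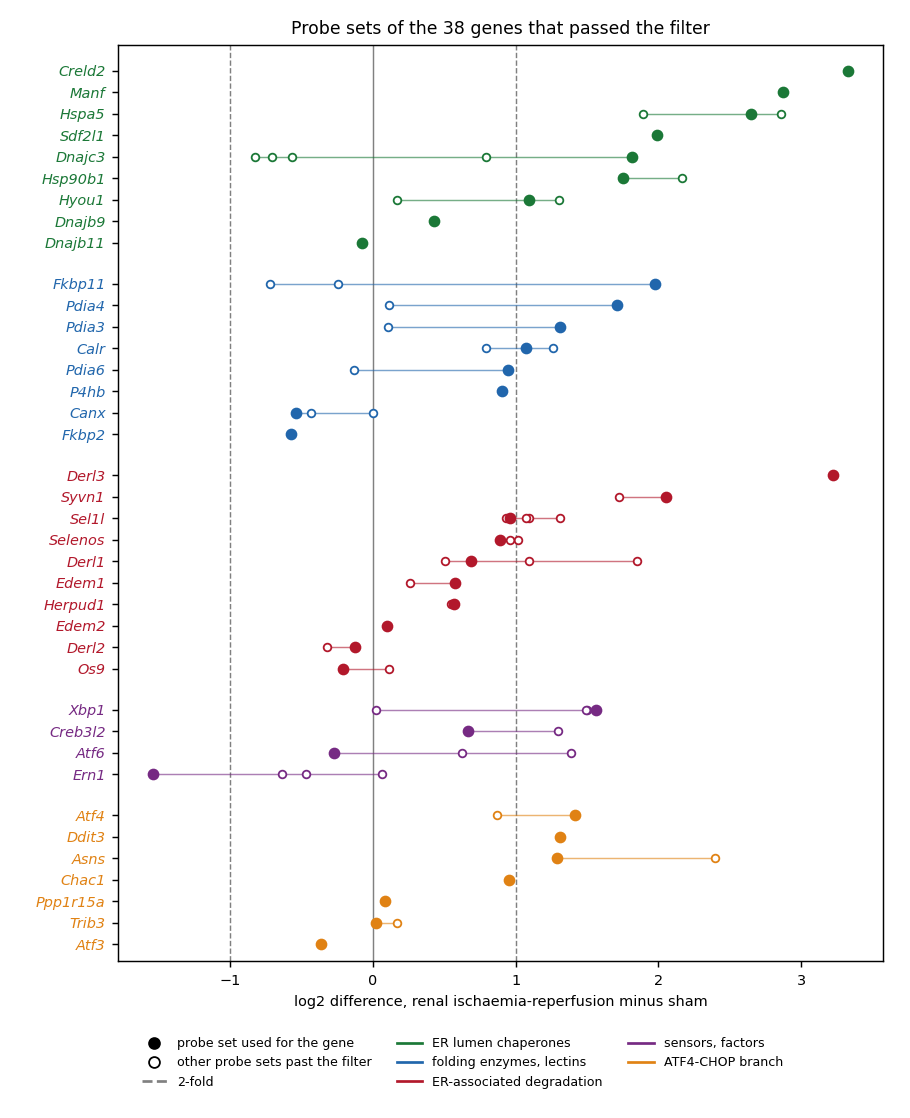
The log2 difference of each probe set past the filter, renal ischaemia-reperfusion minus sham, for the 38 genes grouped by role; filled circles are the probe sets used for the gene, open circles the others, thin lines their range and dashed lines 2-fold. Probe sets under the median of 1 array are drawn at their measured values, and such a one of Asns has a bound of only 1.70-fold. The probe sets of Hspa5, Hsp90b1 and Syvn1 all lie beyond 2-fold, while those of Dnajc3, Fkbp11, Atf6 and Ern1 spread over both signs.

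In ER-associated degradation 8 of 10 genes were higher, 2 of them at least 2-fold, with none 2-fold lower and a median of 0.63. Of all 13117 genes, 6467 were higher by any amount and 8.71% at least 2-fold. Edem1, Edem2, Herpud1, Os9 and Derl2 lay within the 0.68 SD between probe sets of a member, so their directions are uncertain. The members of this list 2-fold or more higher were Syvn1 and Derl3. Syvn1, which encodes the ubiquitin ligase HRD1, had signals of 2185 and 9107 (4.15-fold higher), and its second probe set read 1.72. Sel1l, the adaptor that stabilises HRD1, had 2609 and 5080.4, a difference of 0.96. Its 5 probe sets lay between 0.93 and 1.31, and 3 of them were past 2-fold. Os9, the lectin that brings glycoproteins to this complex, had 4028 and 3477 (-0.21), with a second probe set at 0.11.

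The Derlins, membrane proteins of the export channel, differed among themselves. For Derl3 the sham signal was 154.9, under the array median, and 1577 after renal ischaemia-reperfusion. Against that median it was at least 5.83-fold higher, by its only probe set. Derl1 had 2231 and 3594, a difference of 0.68, and its 4 probe sets ranged from 0.50 to 1.85. Derl2 had 2549 and 2335 (-0.13), with a second probe set at -0.32.

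Herpud1, a membrane protein of the HRD1 complex, had signals of 11919 and 17683, a difference of 0.57, and its second probe set read 0.55. Selenos, a selenoprotein that tethers the ATPase VCP to the ER, had 3442 and 6382 (0.89 by an _s_at probe set), with the others at 0.96 and 1.02. Edem1 and Edem2, which trim mannose from misfolded glycoproteins, read 0.57 and 0.10. For Edem1 the signals were 2194 and 3272, and for Edem2 they were 1692 and 1810.1.

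The sensors and their transcription factors did not share a direction. Xbp1 had signals of 10837 and 32097 (2.96-fold higher), and 3 of its 4 probe sets read between 1.49 and 1.57 while the dimmest of them read 0.02. Spliced and unspliced Xbp1 were not told apart here. Ern1, the IRE1 gene, had 1546 and 520.8, 2.91-fold lower, the only member past 2-fold in that direction. Its other probe sets past the filter read -0.47, 0.07 and, under the median after renal ischaemia-reperfusion, at least 1.30-fold lower, so the size of its difference rests on 1 probe set. Atf6 had 1349 and 1115 (-0.27), but a dimmer probe set read 0.62 and the dimmest was at least 2.10-fold higher, so its direction is uncertain. Creb3l2, a transcription factor of the ER membrane that is cut as ATF6 is, had 829.6 and 1324 (0.66), with a second probe set at 1.30.

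In the branch of PERK, ATF4 and CHOP, 3 of 7 genes were 2-fold or more higher and none as much lower, with a median of 0.95. Atf4 had signals of 1886 and 5062 (2.67-fold higher), and its second probe set past the filter read 0.87. Ddit3, the gene of CHOP, was close to the array median in the sham pool, with 287.7 and 736.5 (2.48-fold higher) by the 1 probe set past the filter. Asns, the asparagine synthetase induced by ATF4, had 920.7 and 2273 (2.44-fold higher), and its other probe set, under the median in the sham pool, was at least 1.70-fold higher. Chac1, which breaks down glutathione, had 793.1 and 1547, a difference of 0.95.

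The other genes of this branch differed little or were lower. Ppp1r15a (GADD34), which brings the phosphatase to eIF2alpha, had signals of 601.7 and 637.4 (0.08). Trib3, a pseudokinase induced by CHOP, had 557.7 and 565.7 (0.02), and Atf3, a stress-induced repressor, 408.4 and 313.3 (-0.37). Chac1, Trib3, Atf3 and Asns each had a CARE in the promoter, and their differences ran from -0.37 to 1.29.

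The members were also sorted by the arm that textbooks name as their main regulator, although several promoters answer to more than 1 arm. The ATF6 arm (Atf6, Hspa5, Hsp90b1, Hyou1, Pdia4, Calr, Creld2, Manf, Sdf2l1, Herpud1 and Sel1l) had a median of 1.71, with 8 of 11 genes 2-fold or more higher and none as much lower. That median is the value of Pdia4, whose second probe set read 0.115. Of the 8, Hyou1 read 0.165 by its least different probe set, and Calr fell to as low as 0.77 with other scalings. Atf6 itself is uncertain in sign. The IRE1-XBP1 arm (Ern1, Xbp1, Dnajb9, Dnajb11, Dnajc3, Edem1, Edem2, Derl1, Derl2, Derl3, Syvn1 and Fkbp11) had a median of 0.63. In it, 5 of 12 genes were past 2-fold on the higher side and 1 on the lower. Of those 5, Dnajc3 and Fkbp11 are uncertain in sign, Xbp1 read 0.02 by its least different probe set and without probe sets that carry an _s_at, _x_at or _a_at suffix, and Derl3 passed the filter only through the array where it was high. Syvn1 was 2-fold or more higher under each of the 13 alternatives described next. The ATF4-CHOP arm stood at 0.95 over 7 genes and ER-associated degradation at 0.63 over 10. The last list shares 2 genes with the ATF6 arm and 6 with the IRE1-XBP1 arm, so these medians are not independent.

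The ATF6 arm had the highest of the 4 medians in the setting used and in each of 13 alternatives, and all 4 medians were above 0 in each. Their distances were not tested. The arm lists were chosen with earlier results of these data known. The ATF6 list leaves out genes with an ERSE or ERSE-II, from Canx (-0.54) and Dnajb11 (-0.08) to Syvn1 (2.05), and Derl3, whose fold is a bound. Alternatives that only centred the differences, or changed the pseudocount, the filter or dim signals, left the ATF6 median between 1.64 and 1.73. Those settings put its rank to little test. With probe sets of a gene averaged, the ATF6 arm stood at 1.07 and the IRE1-XBP1 arm at 0.38. With each gene read by its least different probe set they stood at 0.93 and 0.08, with ATF4-CHOP at 0.87.

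**Figure D3:**
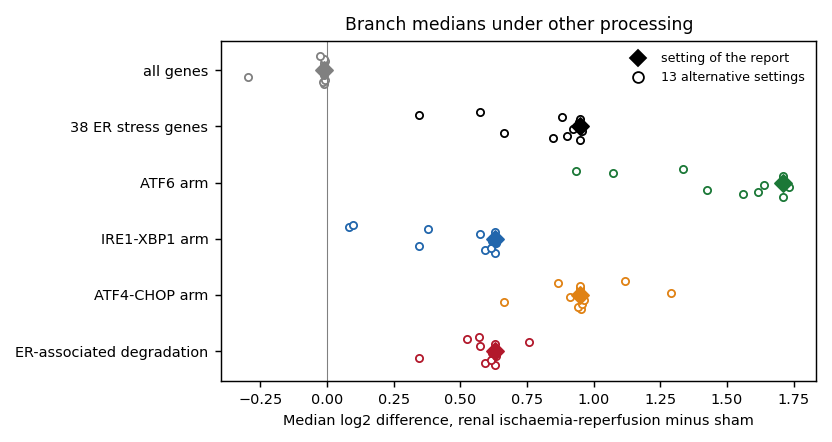
Median log2 difference, renal ischaemia-reperfusion minus sham, of all genes, the 38 ER stress genes and the 4 arms in the setting used (filled diamonds) and under 13 alternative settings (open circles, spread vertically for legibility only). The ATF6 arm ranges from 0.93 to 1.73 and the IRE1-XBP1 arm from 0.08 to 0.63.

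**Figure D4:**
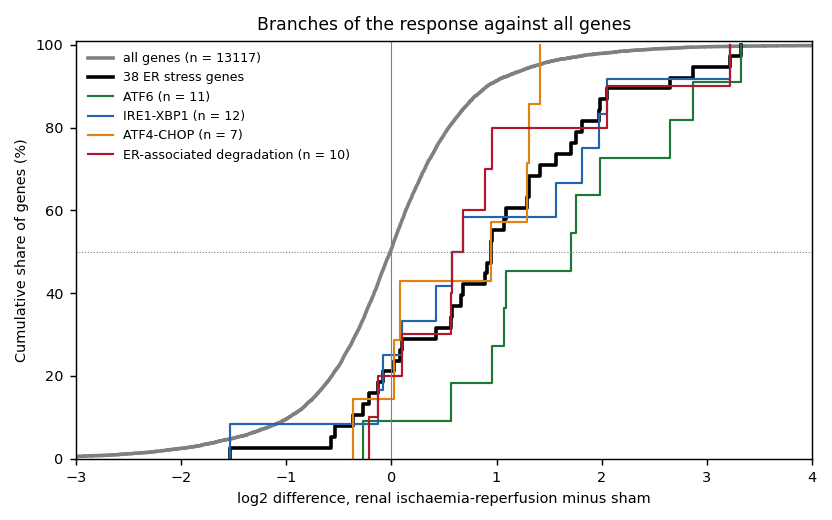
Cumulative share of genes, in percent, against the log2 difference, renal ischaemia-reperfusion minus sham, for all 13117 genes (grey), the 38 ER stress genes (black) and the 4 arms (colours), which share some genes; the horizontal axis is cut at -3 and 4. The curve of the ATF6 arm lies farthest to the right at its median of 1.71, and that of all genes crosses 50% at -0.01.

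The promoter elements can be set beside these values. The 11 members with an exact ERSE or ERSE-II had a median of 1.76, with 7 at least 2-fold higher, and the 23 without had a median of 0.89, with 8 at least 2-fold higher and Ern1 lower. Hspa5, Creld2, Derl3, Syvn1, Hsp90b1, Dnajc3 and Calr were the 7. Among them, Derl3 passed the filter only through the array where it was high, and Dnajc3 is uncertain in sign. Calr fell under 2-fold, to as low as 0.77, with other scalings. Of all genes read, 8.71% were at least 2-fold higher. Pdia6, Herpud1, Dnajb11 and Canx also held an element, with differences from 0.94 to -0.54. The 5 members with a CARE had a median of 0.57, with Asns alone at least 2-fold higher. Sdf2l1, Pdia4 and Xbp1 held no exact match and were at least 2-fold higher by their brightest probe sets. Sdf2l1 was read by 1 probe set, the second of Pdia4 read 0.115, and the dimmest of Xbp1 read 0.02. ERSEs are textbook features of several of these genes, and the split was not tested. Dnajc3, Syvn1, Derl3 and Dnajb11, which held an element, are listed in the IRE1-XBP1 arm, so the split does not tell the arms apart.

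Other genes of the same processes, not on the list of 38, differed less. The bounded counts below stand beside 5.5% of all genes 2-fold or more higher and 6.59% as much lower. Of 33 further ER folding genes, 29 were read, 6 2-fold or more higher and none as much lower, with a median of 0.27. Nucb2, a calcium-binding protein, had signals of 69.0 and 796.2 (at least 2.97-fold higher), and the calcium-binding proteins Rcn2 and Calu read 1.60 and 1.45. Ero1b, an oxidase that recharges disulfide isomerases, was the lowest at -0.85, with Sil1, a nucleotide exchange factor of BiP, at -0.83 and Ganab, a glucosidase, at -0.70. Of 22 further genes of ER-associated degradation read, 1 was 2-fold or more higher and 1 as much lower (bounded), with a median of 0.16. These shares, 4.5% each, were no higher than those of all genes. Ube2g2, a ubiquitin-conjugating enzyme, read 2.40 but its second probe set -0.34. Selenok (0.93) and Ufd1 (0.90) were the next highest. The ligase Rnf5 (-1.56) and Man1b1 (-0.83) were among the lowest, and Svip, an inhibitor of this pathway, was at least 1.32-fold lower.

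Of 11 further sensors and ER transcription factors read, 2 were 2-fold or more higher and none as much lower (bounded), with a median of 0.45, or 0.32 with bounds. Eif2ak3, the PERK gene, had signals of 569.9 and 1206 (2.09-fold higher) by the 1 probe set past the filter. Ern1 was lower by its brightest probe set, but had probe sets of both signs. Wfs1, a calcium regulator of the ER membrane, had the same difference of 1.06, and Creb3l1 was at least 1.25-fold higher. Creb3l3, the liver factor CREBH, had 7930.3 and 12417 (0.65). Mbtps1, the protease that starts the cutting of ATF6, had 2115 and 1083 (-0.96), and all 3 of its probe sets were lower. Nfe2l1 read -0.22 and Tmbim6, which restrains IRE1, -0.18. Atf6b was under the array median on both arrays (98.2 and 139.8), so no fold is given.

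Of 27 further ATF4 targets read, 4 were past 2-fold on the higher side and 2 on the lower (bounded), with a median of 0.41, or 0.13 with bounds. Psat1, an enzyme of serine synthesis, had signals of 29.3 and 1168 (at least 4.34-fold higher), and Ddit4, an inhibitor of mTOR signalling, was at least 3.65-fold higher. Nupr1 was at least 1.05-fold higher, a bound near no difference. Shmt2, the mitochondrial serine hydroxymethyltransferase, was 4.40-fold lower (4816 and 1083), with all 4 probe sets lower. Cth, which makes cysteine, was 3.52-fold lower, and the arginine transporter Slc7a1 read -0.71 with probe sets of both signs. Fgf21 read 0.09. Genes around eIF2 had a median of 0.61 over 9 read, led by Eif2ak3 with the eIF2B subunits Eif2b4 (0.87) and Eif2b3 (0.79). The kinases Eif2ak1 (-0.54) and Eif2ak2 (-0.17) were the lowest. Of 4 known targets of mRNA decay by IRE1 that were read, none was past 2-fold, from Col6a1 at -0.85 to Sparc at 0.40 and Scara3, which was at least 1.54-fold higher.

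The pool after renal ischaemia-reperfusion also had higher signals of genes of pancreatic acinar cells, which are rich in ER. Of 21 acinar markers read, 8 were 2-fold or more higher and none as much lower (bounded), with a median of 1.16, or 0.68 with bounds, and no marker was at 0 on either array. The summed signal of the 22 markers with a probe set was 10262 in the sham pool and 21782 after renal ischaemia-reperfusion, with single markers from 18.5 to 1977 and from 217.2 to 2944.5. Cpa1 was at least 3.42-fold higher and Ctrb1 at least 4.22-fold higher, whereas the acinar transcription factors Bhlha15 and Ptf1a read 0.42 and -0.24. A second probe set of Bhlha15 read -0.43, so its direction is uncertain. The part of these cells in the values above, such as those of Derl3, Creld2, Sdf2l1 and Manf, was not tested. In bulk tissue, a change in the number of cells of a type and a change in RNA per cell cannot be told apart.

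Markers of plasma and B cells, the other cells with an expanded ER, had a median of -0.23 over 10 read, or -0.11 with bounds, and 1 was at least 2-fold higher and none lower (bounded). That gene was Sdc1 (3434 and 10329), which hepatocytes also express. The summed signal of all 11 markers was 8960 and 14846, and that of the 10 without Sdc1 was 5527 and 4517. Of the 10 markers read, Sdc1 included, 4 were higher and 6 lower by any amount. Jchain had signals of 285.1 and 201.6, the latter under the median, so it was at least 1.115-fold lower. Mzb1 had 1018 and 775.2. Prdm1 (0.46) and Cd79a (0.23) were higher, and Irf4 was at least 1.06-fold higher. Kupffer cell markers had a median of -0.43 over 10 (-0.37 with bounds) and sinusoidal endothelial markers -0.47 over 10 (-0.34). Among the latter, Lyve1 was 8.04-fold higher (326.8 and 2740.5), while 2 were at least 2-fold lower (bounded). Of the neutrophil markers, S100a8 was at least 5.21-fold and S100a9 at least 2.945-fold higher, and none was 2-fold lower (bounded). Neutrophil markers stood at 0.20 over 10, stellate cell markers at 0.00 over 9 and biliary markers at 1.87 over 4 (1.05 with bounds), 2 of these at least 2-fold higher (bounded). The summed signal of 6 biliary markers was 1235 and 2909, with Krt7 and Cftr under the median on both arrays. Their part in the values of the 38 genes was not tested either.

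**Figure D5:**
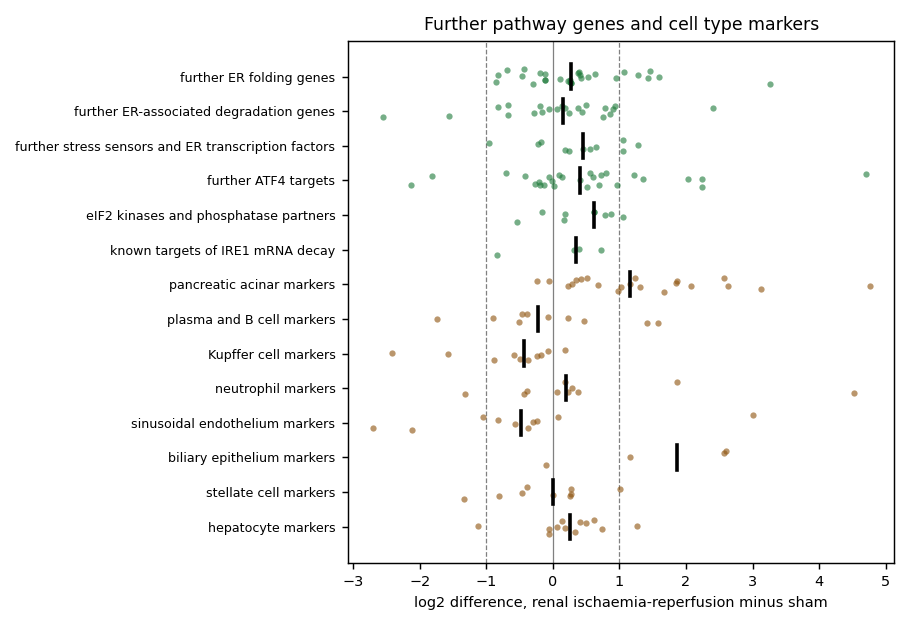
The log2 difference of each gene read, renal ischaemia-reperfusion minus sham, in 6 lists of further pathway genes (green) and 8 lists of cell type markers (brown); black bars are list medians, dashed lines 2-fold, and points are spread vertically for legibility only. Signals under the median of 1 array are drawn at their measured values. Further folding genes centre on 0.27 and acinar markers on 1.16, or 0.68 with bounds.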

How the data were processed

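Liver RNA of 2 pools, each from 3 mice, was read on 1 array per pool. Trizol was used for extraction and biotinylated cRNA was made from 6 ug of total RNA, per the labels' protocols. The authors deposited 1 linear intensity per probe set and array. With 2% of values trimmed from either end, both arrays averaged 500, the mark of scaling to a common target before deposit. The software behind the values: not given in the sources used here.

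Gene names came from the platform annotation, with symbols updated through the Entrez ID for 34741 of 34945 probe sets naming 1 gene. In Python 3.11.15, log2 differences were taken with a pseudocount of 16, on 21003 such probe sets at or above the array median on at least 1 array, which gave 13117 genes. Genes are called at 2-fold, since 1 array per group allows no test, and the number of arrays limits the precision. Probe sets with the suffix _s_at or _x_at can cross-hybridise. A gene under the median on 1 array has its fold as a bound against that median. The members, lists and alternatives were chosen with earlier results of these data known. All 38 members were named, and of further pathway lists up to 3 highest and 3 lowest genes and a short panel fixed by name. Of the marker lists only a few genes are named, some at the extremes of signal and some defining ones. None is named of the Kupffer cell and stellate cell lists. The steps were tested on simulated arrays. Alternatives changed the scaling, pseudocount, filter, probe set choice and threshold. Motif searches used exact letters. Protein sequences were not used here.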

Additional observations from a re-analysis of the deposited data

How the results depend on the processing

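No paired analysis was possible because each group holds 1 pool. In the setting used, 17 members were at least 2-fold higher, against 8.71% of all genes. The count was 9 with each gene read by its least different probe set (7.06% of all genes). It was 10 of 31 without suffixed probe sets (8.55%), and 14 to 17 under the other alternatives at 2-fold. With the threshold at 3-fold it was 10 (3.6% of all genes), and at 1.5-fold 24 (18.67%). The 1 member at least 2-fold lower, Ern1, became 0 by the mean of probe sets, by the least different probe set and at 3-fold. The members' median of 0.95 moved to 0.66 with the hybridisation controls as the reference, 0.34 by the least different probe set and 0.57 without suffixed probe sets. In the same order the ATF6 arm stood at 1.42, 0.93 and 1.33 (1.07 by the mean of probe sets), and the IRE1-XBP1 arm at 0.34, 0.081 and 0.10 (0.38 by the mean). With those controls, ATF4-CHOP stood at 0.66 and ER-associated degradation at 0.34, all genes had a median of -0.30, and 27.3% of 2-fold genes were higher in place of 47.6%. With the filter at the 75th percentile ATF4-CHOP stood at 1.29 over 5 genes. In all, 10 members changed sign under 1 or more alternatives. By the least different probe set, Dnajc3 read -0.56, Ern1 0.066, Fkbp11 -0.25 (also without suffixed probe sets), Pdia6 -0.14, Canx 0.002 and Os9 0.11. Atf6 read 0.58 by the mean of probe sets, and Trib3 (-0.27), Edem2 (-0.19) and Ppp1r15a (-0.20) changed with the hybridisation controls. Of the 18 members past 2-fold, 9 fell under it or changed sign under 1 or more alternatives, the lowest values of those not named above being 0.108 for Pdia3, 0.115 for Pdia4, 0.165 for Hyou1, 0.024 for Xbp1, 0.77 for Calr and 0.87 for Atf4. Of 484 values of members under the alternatives, 467 moved by less than the SD between probe sets of a gene, or not at all. Another 13 moved by more and 4 changed sign from past 2-fold. All of those came from settings that changed the probe set: the mean, the least different and those without suffix. Other filters left the values of members as they were, and centring hardly moved them, so the 467 are no measure of robustness. Signal above the median, the only measure of background at hand, limits Derl3, Ddit3 and Atf3 most.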
